A study of Bos taurus with 2 samples.

Results

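The 86 barcodes described here are the shallow nuclei of the bovine day-8 blastocyst whose share of ribosomal protein transcripts was at most 5%. They were chosen by 4 measured values: at least 500 detected genes, under 4000 UMIs (unique molecular identifiers, each counting 1 captured RNA molecule), under 10% of UMIs from the 13 mitochondrial mRNAs, and at most 5% from ribosomal protein genes. They made up 9.11% of the 944 barcodes of the blastocyst library, 2.96% of the 2901 barcodes of the series, and 3.01% of the blastocyst library's 7029253 UMIs. They are called shallow low-ribosomal nuclei, or shallow nuclei, below; low refers to the 5% limit, since their ribosomal share was above that of deeper nuclei. The series holds 1 library of wild-type day-8 blastocysts and 1 library of wild-type blastoids, which are blastocyst-like structures assembled from 3 cultured bovine lines (bEPSC, bTSC and bXEN). Both were frozen, broken open with a pestle in lysis buffer, and profiled by 3′ single-nucleus RNA sequencing. The number of embryos and how they were produced are not given in the sources used here. With 1 library per group, no value below has a replicate check and no test was made: each interval is an exact 95% interval and covers counting error only.

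A blastocyst has an outer trophectoderm, which forms the placenta, and an inner cell mass that sorts into epiblast, the source of the embryo proper, and hypoblast, the source of the yolk sac lining. Replication-dependent histone genes supply the core histones H2A, H2B, H3 and H4 and the linker H1 while DNA is copied, and their mRNAs end in a stem-loop instead of a poly(A) tail. Replacement histones such as H2A.Z and H3.3 are made throughout the cell cycle from ordinary polyadenylated mRNAs. The 3′ libraries used here capture RNA by its poly(A) tail or by internal runs of A, so the level of a histone mRNA without a tail is a level of what was captured.

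Of the 251 blastocyst barcodes under 4000 UMIs, 152 had at least 500 genes. Among these, 12 had at least 10% mitochondrial UMIs, 54 exceeded 5% ribosomal protein UMIs, and 86 remained. The shallow low-ribosomal nuclei had a median of 2482.5 UMIs (range 686 to 3994) and 1595.5 genes. The reference throughout is the 693 blastocyst barcodes of at least 4000 UMIs and under 10% mitochondrial UMIs, called deep nuclei, which had a median of 8606 UMIs. The same limits kept 6 barcodes of the blastoid library, which were not analysed further. The libraries shared 1 barcode sequence, and it was not among the 86.

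The description of the group as nuclei without ribosomal enrichment held against the 5% limit and not against the deep nuclei. Ribosomal protein genes took a median of 1.62% of UMIs per shallow nucleus, against 0.835% per deep nucleus and 9.13% in the 54 ribosomal-rich shallow barcodes, and the ratio of the summed shares to deep nuclei was 1.80 (1.74 to 1.86). Mitochondrial mRNAs took a median of 0.902% against 0.4% in deep nuclei and 3.82% in the ribosomal-rich barcodes. Barcodes lay close to each limit on both sides, and the values below only describe the bands. The 6 barcodes just inside the ribosomal limit (4% to 5%) had a median share of 4.89% and the 5 just outside (5% to 6%) one of 5.46%. The 20 barcodes of 3500 to 4000 UMIs had a median of 2202.5 genes and the 19 next above the 4000 limit (4007 to 4442 UMIs) a median of 2393. The 6 barcodes of 500 to 600 genes had a median of 548.5 genes, and the 7 of 400 to 500 genes that met the other limits a median of 438.

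**Figure D1:**
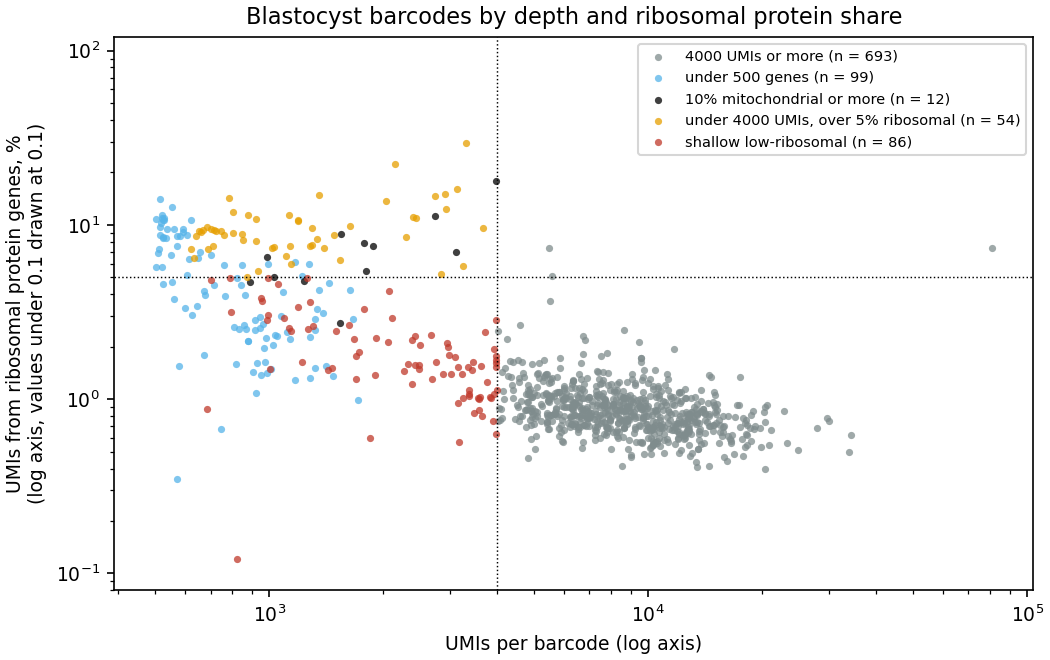
Each point is 1 blastocyst barcode, with its UMIs on the x axis (log) and its percentage of UMIs from ribosomal protein genes on the y axis (log); colours mark the 86 shallow low-ribosomal nuclei, the 693 deep nuclei and the 3 other sets, and dotted lines mark 4000 UMIs and 5%. The shallow low-ribosomal nuclei run on from the deep nuclei at 4000 UMIs and spread up to the 5% limit as depth decreases.

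Of the 3 genes given as markers of the group, only H2AC14 had a pooled ratio to deep nuclei whose interval excluded equal levels. H2AC14, a replication-dependent H2A gene, had 17 UMIs in 7 of the 86 nuclei, 80.3 CPM (UMIs per 1000000 UMIs of the summed nuclei) against 6.03 in deep nuclei, a ratio of 13.3 (7.08 to 24.0). A single nucleus held 10 of these UMIs, and without it the ratio was 5.55. The 8 nuclei richest in histone UMIs, described below and chosen in part by this gene, held 14 of the 17, and the other 78 nuclei had 15.2 CPM. All 17 were in nuclei under 3000 UMIs, 5 under 2000 and 12 from 2000 to 3000. H2AC14 was no lower in the other shallow barcodes, at 105 CPM in ribosomal-rich barcodes and 107 CPM in barcodes under 500 genes. SALL4, a zinc-finger factor of pluripotent cells, had 22 UMIs in 19 nuclei and 104 CPM against 96.9, a ratio of 1.07 (0.667 to 1.64). DNMT3B, a de novo DNA methyltransferase, had 27 UMIs in 18 nuclei and 128 CPM against 137, a ratio of 0.932 (0.611 to 1.37). The pooled intervals of SALL4 and DNMT3B include equal levels. From the shallowest of 3 depth bands to the deepest (under 2000, 2000 to 3000 and 3000 to 4000 UMIs), the SALL4 ratio was 2.22 (1.01 to 4.24), 0.648 (0.133 to 1.90) and 0.845 (0.403 to 1.56), and the DNMT3B ratio 1.40 (0.601 to 2.76), 0.917 (0.336 to 2.00) and 0.778 (0.413 to 1.34). The intervals of each gene overlap between bands. The group is therefore described by its limits and not by these markers.

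Depth divided the group. The 34 nuclei of 3000 to 4000 UMIs held 57.7% of the group's UMIs, the 19 of 2000 to 3000 UMIs held 22.6%, and the 33 under 2000 UMIs held 19.8%. Median ribosomal protein shares were 1.13%, 1.78% and 2.57% in the same order, and median mitochondrial shares 0.352%, 0.994% and 1.16%. Across 2145 genes, with each sum thinned to 41854 UMIs, Spearman's rho with the deep sum was 0.634 for the 3000 to 4000 band, 0.375 for the 2000 to 3000 band and 0.327 for the band under 2000. The corresponding values with the ribosomal-rich shallow barcodes were 0.0767, 0.363 and 0.432. These correlations are descriptions across genes of sums from 1 library, and genes are not independent replicates. The deepest band carries most UMIs and so weighs most in the summed profile of the 86 nuclei, and values by band are given below for the main lists.

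The summed profile was compared with the deep sum over 2539 genes whose 2 CPM values averaged at least 100, with counts under 3 set to 3. At least 2-fold higher were 115 genes (4.53%), and at least 2-fold lower were 90 genes (3.54%), while the median log2 ratio of all genes compared was -0.08. A fold is no test, and these shares are the background against which the lists below are read. A gene could pass the minimum through the sum in which it was high, so counts of list members compared only describe those members, while list sums and counts by CPM use every member with a symbol. Among the 115 higher genes, 22 were ribosomal protein genes (of 60 compared), a class the selection itself used, and 15 had no symbol. The ribosomal-rich shallow barcodes had still higher levels of 80 of the 115, and the 99 barcodes under 500 genes of 64. All 115 were also above each of 3 groups of deep nuclei gated on marker UMIs: 204 with trophectoderm factors (GATA2, GATA3), 296 with hypoblast factors (GATA4, HNF4A, PDGFRA, SOX17) and 102 with epiblast factors (NANOG, PRDM14). The epiblast gate was not separated from hypoblast: it had 572 CPM of HNF4A against 605 in the hypoblast gate, so it is no pure epiblast reference. The hypoblast list is no guide to this, with 3319 CPM in the epiblast, 3698 in the hypoblast and 3845 in the trophectoderm gate. Of the 90 lower genes, 69 had their highest gated level in the trophectoderm gate, and 54 were below all 3 gates. The same gate was highest for 53 of the 115 higher genes and for 917 of all 2539 genes compared.

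**Figure D2:**
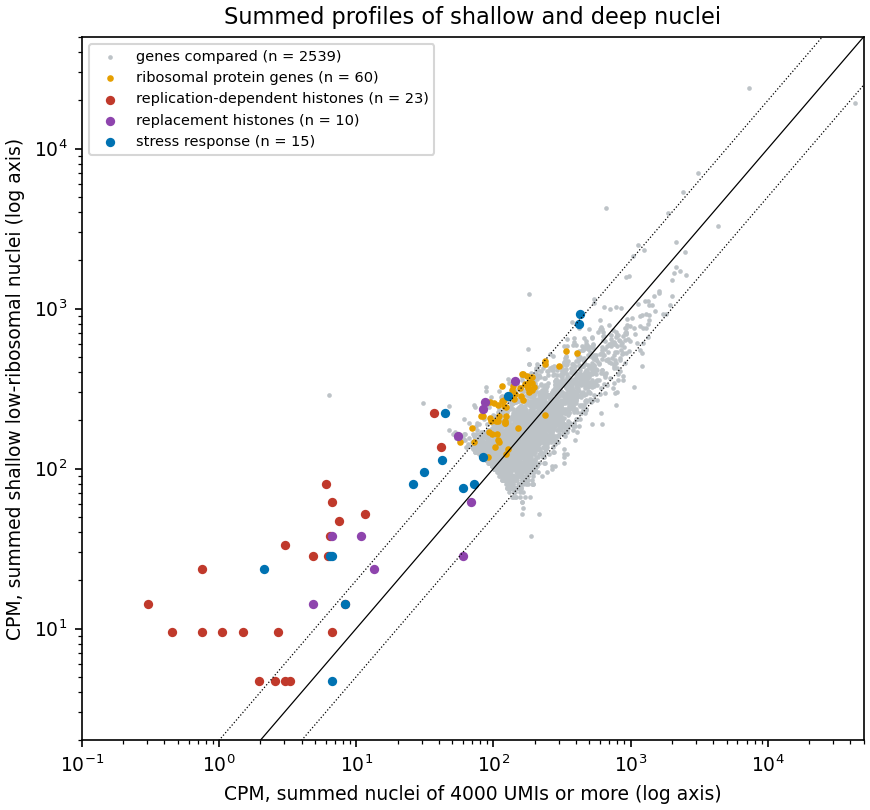
Each point is 1 gene, with its CPM in the summed deep nuclei on the x axis and in the summed shallow low-ribosomal nuclei on the y axis (both log); the solid line marks equal levels and the dotted lines 2-fold. Listed genes are drawn where both sums had a UMI, below the 100 CPM minimum too, and all 23 replication-dependent histones drawn lie above the line of equal levels.

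Replication-dependent histones stood further above the deep level than any other list with more than 100 UMIs. The files name 26 such symbols, and 23 had a UMI in the shallow nuclei. Together they gave 181 UMIs and 855 CPM (735 to 989) against 165 CPM (155 to 175) in deep nuclei, a ratio of 5.19 (4.41 to 6.08), or 2.38 on the log2 scale. Levels were 99.3, 207 and 168 CPM in the trophectoderm, hypoblast and epiblast gates, 554 CPM in the ribosomal-rich shallow barcodes and 1120 CPM in the barcodes under 500 genes. By CPM, 23 of the 26 symbols were higher than in deep nuclei and 2 lower. H3C6 was the single member that met the 100 CPM minimum, and it did so only through the shallow sum.

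H3C6, an H3 gene, had 47 UMIs in 24 nuclei and 222 CPM against 36.9, a ratio of 6.01 (4.3 to 8.24). No nucleus held more than 8 of its UMIs. H1-5, a linker histone, had 29 UMIs in 18 nuclei and a ratio of 3.28 (2.16 to 4.82). Among the H2A genes, H2AC20 had 11 UMIs (ratio 4.48, 2.15 to 8.47), H2AC6 had 10 (6.27, 2.83 to 12.5) and H2AC18 had 7 (11, 3.92 to 27.0). Among the H2B genes, H2BC19 had 13 UMIs (9.26, 4.58 to 17.5) and H2BC15 had 8 (5.83, 2.37 to 12.5). H4C6, an H4 gene, had 5 UMIs in 3 nuclei against 5 in all deep nuclei (31.3, 7.21 to 136), so the H4 type rests on few UMIs. Histone genes are near-identical copies, several features share the symbol H3C6 and were summed, and the division of UMIs between single histone genes is uncertain.

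The histone UMIs were unevenly spread over nuclei. No histone UMI was found in 40 of the 86 nuclei, and 21 had 1. The 5 richest nuclei held 42.5% of the list's UMIs, and the richest had 28. Against this, 13 of 86 shallow nuclei (15.1%) and 1 of 693 deep nuclei gave more than 0.2% of their UMIs to these genes. After each nucleus was thinned to 1000 UMIs, which left out 10 shallow nuclei, 24 of 76 had a histone UMI (31.6%, 21.4% to 43.3%), against 16.2% of deep nuclei (13.5% to 19.1%). At 3 or more histone UMIs the thinned shares were 13.2% (6.49% to 22.9%) and 0.433% (0.0894% to 1.26%). Before thinning, 53.5% of shallow and 65.7% of deep nuclei had a histone UMI, an order that follows their depths.

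**Figure D3:**
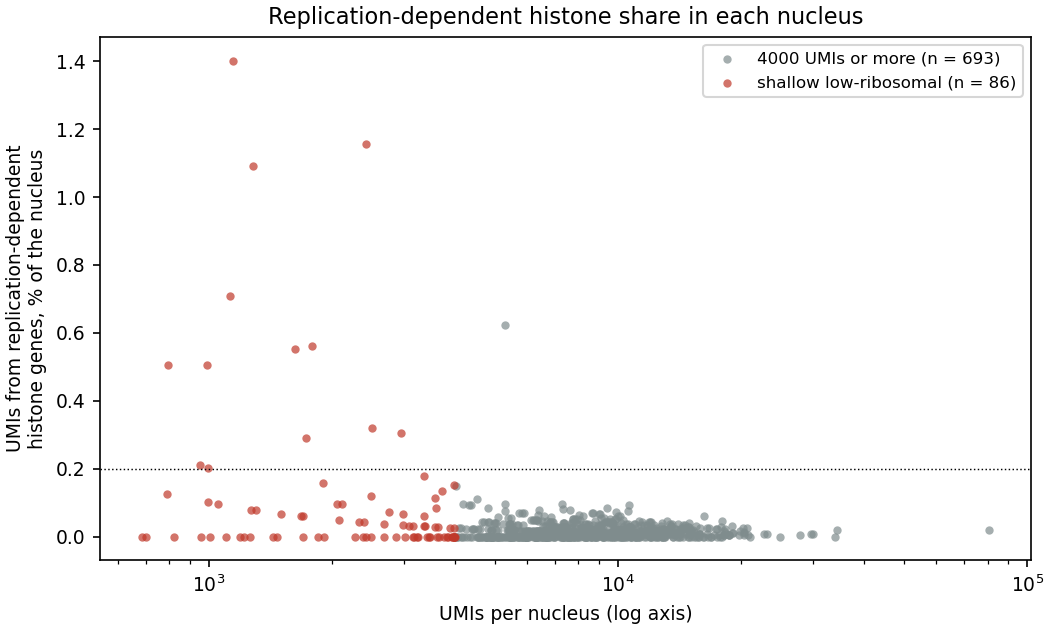
Each point is 1 nucleus, with its UMIs on the x axis (log) and the percentage of them from replication-dependent histone genes on the y axis; the dotted line marks 0.2%. Above it lie 13 of the 86 shallow low-ribosomal nuclei, all of them under 3000 UMIs, and 1 of the 693 deep nuclei.

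Histone levels followed depth within the group. The ratio to deep nuclei was 12.5 (9.90 to 15.5) under 2000 UMIs, 7.75 (5.89 to 10.0) from 2000 to 3000 and 1.69 (1.16 to 2.38) from 3000 to 4000. Of the 8 histone-rich nuclei described next, 5 were under 2000 UMIs, 3 from 2000 to 3000 and 0 from 3000 to 4000. They raise the ratios of the shallower bands. Low-ribosomal barcodes of 4000 to 5000 UMIs had 188 CPM, those of 5000 to 8000 also 188 CPM, and those of 8000 or more 155 CPM. The higher histone share was therefore measured mainly in the 52 nuclei under 3000 UMIs.

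A subset of 8 nuclei held at least 8 histone UMIs each and 102 of the 181 in all (56.4%), and it was picked after these values were seen. They had 1128 to 2951 UMIs, ribosomal protein shares of 2.04% to 3.59%, and histone shares of 0.305% to 1.40%, against a median of 0.0278% over all 86. Without them the list stood at 401 CPM, a ratio of 2.44 (1.91 to 3.06) to deep nuclei. The same 8 nuclei carried 23 of the 47 UMIs of JUN and 14 of the 22 of JUND, which encode AP-1 subunits, 13 of the 29 of HES1, a Notch target, and 16 of the 43 of SOX4. JUND, HES1 and SOX4 belong to no list and were chosen after their values were seen. These 8 nuclei hold 7% of the group's UMIs, and few lineage UMIs were counted in them. Their ratio to the other 78 nuclei was 1.07 (0.733 to 1.51) for the trophectoderm list on 35 UMIs, 1.34 (0.802 to 2.13) for the epiblast list on 20 UMIs and 0.572 (0.359 to 0.867) for the hypoblast list on 23 UMIs.

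Features that are not ordinary mRNAs, a set also written after values were seen, were high in the same nuclei. The 12 symbols of small structural RNAs (ribosomal, spliceosomal, signal recognition particle and similar RNAs) together had 619 CPM in the shallow nuclei and 350 in deep nuclei, a ratio of 1.77 (1.47 to 2.11). In the 8 histone-rich nuclei they reached 2293 CPM, and in the other 78 nuclei 493 CPM. Metazoa_SRP, the RNA of the signal recognition particle, had 26 UMIs and a ratio of 6.13 (3.86 to 9.38). The symbol 5_8S_rRNA had 35 UMIs and a ratio of 1.92 (1.32 to 2.70). U6, a spliceosomal RNA, had 43 UMIs and a ratio of 1.11 (0.797 to 1.5), so the structural RNAs were not uniformly higher.

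A pair of abundant features without a symbol was also well above the deep level. ENSBTAG00000066082 was found in all 86 nuclei at 23877 CPM, against 7237 in deep nuclei, a ratio of 3.30 (3.20 to 3.40). ENSBTAG00000060382 was found in 71 nuclei at 4265 CPM, against 663, a ratio of 6.44 (5.99 to 6.92). In the 8 histone-rich nuclei they stood at 77079 and 21175 CPM. By depth, the ratio of ENSBTAG00000066082 was 8.42, 3.60 and 1.43 and that of ENSBTAG00000060382 was 20.3, 5.59 and 2.00, from the shallowest to the deepest band. Both were likewise high in barcodes under 500 genes, at 21201 and 10267 CPM. The reverse held for ENSBTAG00000061247, the feature without a symbol that was most abundant in deep nuclei, at 19177 CPM against 42895, a ratio of 0.447. What these features encode was not analysed here.

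Replacement histones were also higher, by less. The 12 symbols found gave 1214 CPM (1070 to 1372) against 539, a ratio of 2.25 (1.98 to 2.55), and 8 of the 12 were higher by CPM. The 4 members compared were at least 2-fold higher, but 3 of them were under 100 CPM in deep nuclei (H2AZ1 at 87.1, H3-3A at 84.1 and H2AZ2 at 55 CPM) and entered only through the shallow sum. H3-3A and H3-3B fell just under 2-fold (1.997 and 1.977) without 4 nuclei described below. H2AZ1 and H2AZ2, the H2A.Z genes, had 55 and 34 UMIs and ratios of 2.98 (2.22 to 3.94) and 2.92 (1.99 to 4.15). H3-3A and H3-3B, which encode the same H3.3 protein, had 50 and 75 UMIs and ratios of 2.81 (2.06 to 3.75) and 2.49 (1.94 to 3.15). CENPA, the centromeric H3 variant, had 6 UMIs and a ratio of 0.476 (0.174 to 1.05), and MACROH2A1 13 UMIs and 0.895 (0.473 to 1.55). Unlike the replication-dependent genes, this list was higher in the ribosomal-rich shallow barcodes (2703 CPM) than in the low-ribosomal nuclei. By band its ratios were 2.97, 1.98 and 2.11 from the shallowest to the deepest, a narrower span. Of the 139 UMIs in the deepest band, 40 were in 1 nucleus (of 3713 UMIs, described below), so that ratio leans on it. These differences between lists and bands were not tested.

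Factors that process or carry histones lay closer to the deep level in the pooled sum. The 10 histone RNA processing genes had 666 CPM against 461 (ratio 1.44, 1.21 to 1.71), and none reached the 100 CPM minimum. By depth their ratio was 2.07 (1.48 to 2.83), 2.04 (1.49 to 2.74) and 0.994 (0.749 to 1.29) from the shallowest band to the deepest. SLBP, which binds the histone mRNA stem-loop, had 29 UMIs and a ratio of 2.39 (1.58 to 3.49), or 5.01, 3.29 and 1.14 by band, while NPAT, the activator of histone gene transcription, had 17 UMIs and a ratio of 0.976 (0.564 to 1.58). The 12 histone chaperone genes had 1563 CPM against 979 (1.60, 1.43 to 1.78), and 1.86, 2.01 and 1.35 by band. Of the 3 chaperones compared, NPM1 had a ratio of 1.94 (1.55 to 2.41), SUPT16H, a subunit of FACT, 1.83 (1.20 to 2.68) and NASP, an H3-H4 carrier, 1.47 (1.22 to 1.76). ASF1B had 12 UMIs, 9 of them in 1 nucleus.

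Stress-response genes also summed to more than 2-fold the deep level, but to a ratio of 1.77 without the 4 nuclei described below. The 15 genes found had 2886 CPM (2662 to 3124) against 1366, a ratio of 2.11 (1.94 to 2.29), and 14 of 15 were higher by CPM. JUN, ATF4 and HSPA8 were the members compared that were at least 2-fold higher, and JUN, at 44.6 CPM in deep nuclei, was compared only through its shallow level. ATF4 fell under 2-fold in 2 of 15 alternatives and HSPA8 in 4. By depth the list ratio was 2.90, 2.56 and 1.67 from the shallowest band to the deepest. The nucleus of 3713 UMIs held 62 of the 278 UMIs of the deepest band, so that ratio leans on it. JUN had 47 UMIs in 20 nuclei and a ratio of 4.98 (3.58 to 6.79), or 3.64 without the nucleus of 2419 UMIs that held 13 of them. ATF4, the transcription factor of the integrated stress response, had a ratio of 2.23 (1.69 to 2.90), and its targets DDIT3 and ATF3 had 3.04 (1.82 to 4.82) and 2.70 (1.70 to 4.10). HSPA8, a constitutive HSP70 chaperone, had 195 UMIs in 65 nuclei and a ratio of 2.14 (1.84 to 2.47). The nucleus of 3713 UMIs held 36 of these, and without it the ratio was 1.77. HSPA8 and HSP90AA1 were higher still in the ribosomal-rich barcodes (2611 and 3270 CPM, against 921 and 798), whereas JUN was not (132 against 222 CPM). FOS, with 17 UMIs, was below the deep level when at least 1000 genes or at most 3% ribosomal UMIs were required.

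The list of p53 and apoptosis genes had 595 CPM against 387 (1.54, 1.28 to 1.84), and 12 of its 15 genes were higher by CPM. None reached the 100 CPM minimum. CDKN1A, the p21 cell cycle inhibitor, had 9 UMIs and a ratio of 3.13 (1.39 to 6.22), PMAIP1 (NOXA) 10 UMIs and 2.41 (1.13 to 4.58), and MDM2 19 UMIs and 0.951 (0.569 to 1.5). Nuclear-coded subunits of oxidative phosphorylation had 5205 CPM against 3269 (1.59, 1.5 to 1.69), and 4 of 11 compared were at least 2-fold higher. ATP5F1A and ATP5F1B, subunits of ATP synthase, stayed so in all 15 alternatives, whereas ATP5MG fell under 2-fold in 4 and COX7A2 in 3, in each case also without 1 nucleus, and both were under 100 CPM in deep nuclei. Glycolytic enzymes had a ratio of 1.32 (1.18 to 1.46), with 0 of 7 past 2-fold. In the ribosomal-rich barcodes these lists stood at 18700 and 6027 CPM.

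Cell cycle lists stood nearer to the deep level than the replication-dependent histones did. The 18 S phase genes had a ratio of 1.15 (1.02 to 1.29), 12 of 18 were higher by CPM, and 0 of 3 compared passed 2-fold in either direction, with a median log2 ratio of -0.027. By depth the list ratio was 1.60 (1.27 to 1.98) under 2000 UMIs, 1.06 (0.809 to 1.36) from 2000 to 3000 and 1.04 (0.882 to 1.22) from 3000 to 4000, so it was highest in the band where histones were highest. Within the list, PCNA, the replication clamp, had 18 UMIs in 16 nuclei and a ratio of 3.66 (2.11 to 5.99), or 7.21, 5.41 and 1.76 from the shallowest band to the deepest. CCNE1 and CCNE2, the E cyclins of S phase entry, had 14 and 9 UMIs and ratios of 4.22 (2.23 to 7.4) and 3.76 (1.66 to 7.53), and the helicase subunit MCM4 had 29 UMIs and 2.19 (1.45 to 3.19). POLA1, the catalytic subunit of DNA polymerase alpha, was lower at 0.638 (0.478 to 0.835). The 18 G2 and M phase genes had a ratio of 0.899 (0.797 to 1.01), and 3 of 6 compared were at least 2-fold lower: TOP2A (0.495, 0.306 to 0.760), TPX2 (0.482, 0.275 to 0.787) and BUB1B (0.378, 0.2 to 0.648). BUB1B stayed at least 2-fold lower in all 15 alternatives, whereas TOP2A came within 2-fold in 8 and TPX2 in 5. MKI67, a proliferation marker, had 24 UMIs and a ratio of 2.34 (1.47 to 3.54), or 5.91, 3.88 and 0.506 by band. The G2 and M list stood at 1.44 (1.16 to 1.77) under 2000 UMIs and 0.67 (0.558 to 0.799) from 3000 to 4000, so its direction depended on the depth band. In that shallowest band TOP2A had 9 UMIs and a ratio of 1.07 (0.490 to 2.04), and CENPA had 2 UMIs, too few for a direction.

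DNA methylation genes, chosen because the marker DNMT3B belongs to them, had 1195 CPM against 1609, a ratio of 0.743 (0.653 to 0.841). By depth the ratio was 0.891 (0.679 to 1.15), 0.832 (0.641 to 1.06) and 0.657 (0.548 to 0.781), so only the deepest band excluded equal levels. The median log2 ratio of the members compared was -0.49 in all 86 nuclei and 0.46 in the 33 under 2000 UMIs. TET1, a 5-methylcytosine oxidase, had 129 UMIs in 55 nuclei and a ratio of 0.703 (0.586 to 0.837), and DNMT3A had 0.721 (0.524 to 0.969). TET1 and DNMT3A are at their highest in the trophectoderm gate (1460 and 603 CPM, against 511 and 125 in the hypoblast gate). DNMT1, the maintenance methyltransferase, had 24 UMIs in 22 nuclei and a ratio of 1.83 (1.16 to 2.77). Genes of embryonic genome activation had a ratio of 1.47 (1.33 to 1.62) over 8 symbols, carried by KLF5 (215 UMIs, ratio 1.60) and DPPA4 (133 UMIs, ratio 1.32). The 19 oocyte and maternal genes gave 19 UMIs, a ratio of 0.708 (0.424 to 1.11).

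**Figure D4:**
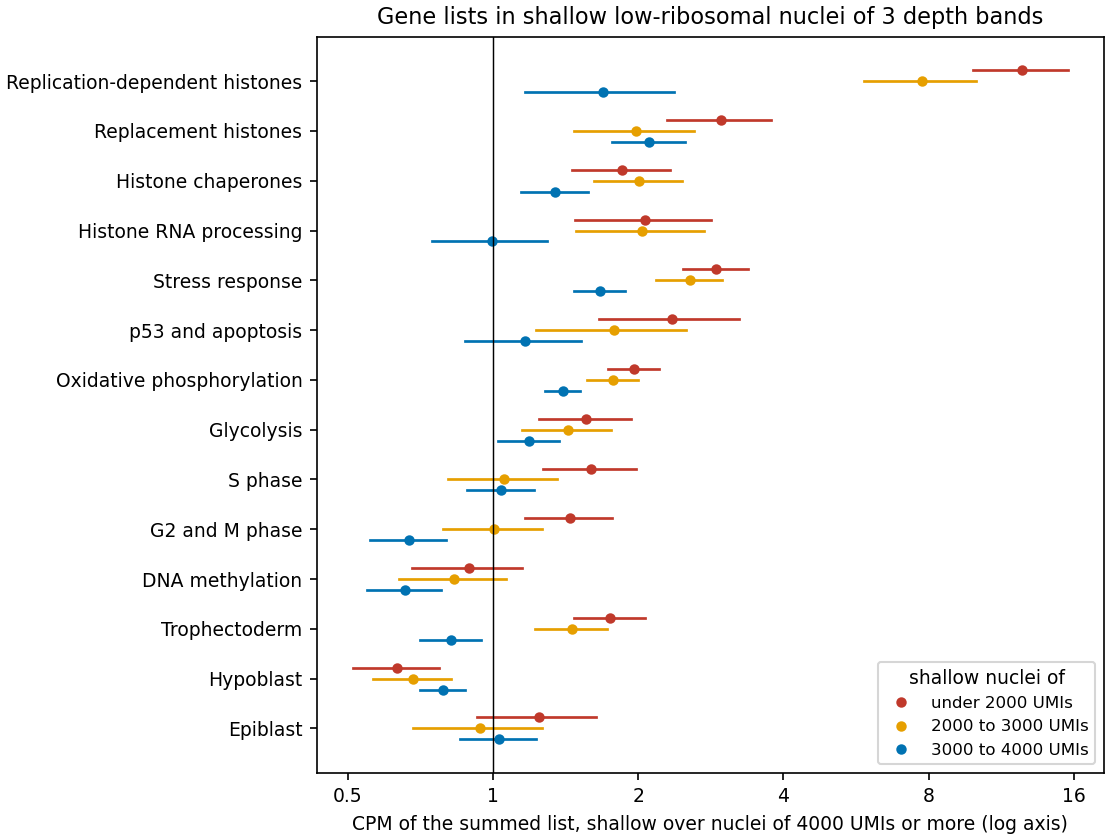
For 14 gene lists, the point is the CPM of the summed list in shallow low-ribosomal nuclei of each depth band over that in deep nuclei (log axis) and the bar its exact 95% interval, which covers counting error only. Replication-dependent histones run from 1.69 in the 3000 to 4000 band to 12.5 under 2000 UMIs, the widest span of the 14 lists. All 8 histone-rich nuclei lie under 3000 UMIs.

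Outside the lists, the 15 genes with the highest ratios included 2, IFI6 and KLF10, with most of their UMIs in 1 nucleus. IFI6, an interferon-induced gene, had 61 UMIs in 5 nuclei and a ratio of 45.5 (30.2 to 69.1). A nucleus of 2113 UMIs held 39 of them and a nucleus of 993 UMIs held 19. These 2 nuclei also held all 30 UMIs of VIM and all 9 of LUM, and the first of them 31 of 34 UMIs of RARRES2, 25 of TIMP1 and 5 of 6 of POSTN. LUM and POSTN are on the fibroblast list, which had 25 UMIs and a ratio of 6.58 (4.10 to 10.2). The list had a UMI in 10 of 86 nuclei, COL1A1 had 4 UMIs, THY1 had 0 UMIs in these 2 nuclei, and without the 4 nuclei named here and below the ratio was 2.20. VIM and RARRES2 were chosen after their values were seen.

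KLF10 and KLF4 are zinc-finger factors. KLF10 had 54 UMIs, 43 of them in the nucleus of 3713 UMIs, and its ratio went from 8.34 (6.06 to 11.3) to 1.73 without that nucleus. KLF4 had 25 of 52 UMIs there, and its ratio went from 5.16 (3.77 to 6.93) to 2.73. The fourth nucleus, of 2419 UMIs, held the 10 UMIs of H2AC14 and 28 histone UMIs in all. Leaving out these 4 nuclei, a choice made after seeing the data, changed the histone ratio from 5.19 to 4.35, the replacement histone ratio from 2.25 to 1.81 and the stress ratio from 2.11 to 1.77.

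Others of the highest 15 were spread over more nuclei. UBB, a polyubiquitin gene, had 68 UMIs in 40 nuclei and a ratio of 3.66 (2.80 to 4.71). FAU, which encodes a ribosomal protein fused to a ubiquitin-like protein, had a ratio of 3.33 (2.37 to 4.56), and NME2 and OAZ1 had 3.7 (2.56 to 5.22) and 3.25 (2.22 to 4.60). These genes were higher again in the ribosomal-rich barcodes, where UBB reached 1728 CPM against 321. A separate set was not: IFRD1 (ratio 3.27, 2.40 to 4.37), NFE2L3 (2.94, 2.08 to 4.06), BRD2, a reader of acetylated histones (2.79, 2.13 to 3.60), and NABP1 (2.71, 1.86 to 3.83) were at 241, 194, 307 and 165 CPM in shallow low-ribosomal nuclei and at 39.6, 39.6, 119 and 26.4 CPM in ribosomal-rich ones. Of the highest 15 genes, 7 were above the ribosomal-rich level. UBB, IFRD1, NFE2L3 and NABP1 were under 100 CPM in deep nuclei and met the minimum only through the shallow sum.

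The 15 genes with the lowest ratios were mostly those of deep trophectoderm nuclei: 13 had their highest gated level in the trophectoderm gate. SLC34A2, a phosphate transporter, had 8 UMIs in 8 nuclei and 37.8 CPM against 186, a ratio of 0.203 (0.0873 to 0.401), and 510 CPM in the trophectoderm gate against 1.91 in the hypoblast gate. CEMIP had a ratio of 0.241 (0.120 to 0.433), DAPK1, a kinase, 0.303 (0.216 to 0.414), and FMNL2, a formin, 0.320 (0.239 to 0.419), with trophectoderm gate levels of 527, 1319 and 1828 CPM. RBFOX2 (0.381, 0.26 to 0.54), an RNA splicing factor, and ATP9B (0.383, 0.203 to 0.658) were the 2 that were not highest in that gate, and they were below all 3 gates, as were 5 of the 15. Both FMNL2 and DAPK1 were lower in each depth band. For FMNL2 the ratios were 0.336, 0.321 and 0.314, and for DAPK1 0.422, 0.302 and 0.263, from the shallowest band to the deepest.

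Lineage markers were present for all 3 lineages. The 15 trophectoderm markers had 2225 CPM against 1938 in deep nuclei (1.15, 1.04 to 1.26), with 0 of 7 at least 2-fold higher and 1 of 7 at least 2-fold lower. Within the list, the keratins KRT18 and KRT8 had ratios of 1.5 (1.27 to 1.76) and 1.52 (1.20 to 1.90) and GATA3 one of 1.14 (0.728 to 1.72). GATA2 stood at 0.708 (0.460 to 1.04) and DAB2, an endocytic adaptor, at 0.404 (0.268 to 0.585). The ribosomal-rich barcodes had 9257 CPM of KRT18 and 171 CPM of GATA2, against 1155 and 496 in the trophectoderm gate. The trophectoderm list was above the deep level under 2000 UMIs (1.75, 1.47 to 2.07) and below it from 3000 to 4000 (0.82, 0.708 to 0.945).

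The 15 hypoblast markers had 2631 CPM against 3582 (0.735, 0.674 to 0.799), and 12 were lower by CPM. LRP2, an endocytic receptor, gave most of the difference: it had 524 CPM against 1213 (0.432, 0.355 to 0.521), and in these deep nuclei it was a trophectoderm-gate gene, with 3065 CPM there and 128 in the hypoblast gate. HNF4A and GATA6, hypoblast transcription factors, had ratios of 0.898 (0.692 to 1.15) and 0.915 (0.773 to 1.08), the collagen genes COL4A1 and COL4A2 had 0.966 (0.727 to 1.26) and 1.12 (0.836 to 1.47), and PDGFRA had 0.635 (0.421 to 0.923). The 15 epiblast markers had a ratio of 1.05 (0.914 to 1.20), with NANOG at 8 UMIs, PRDM14 at 8 and SOX2 at 6. Markers of other cells were few apart from the 25 UMIs of the fibroblast list, most of them from 2 nuclei described above: cumulus and granulosa genes gave 21 UMIs (0.850, 0.523 to 1.31), 13 of them from FSHR, sperm genes 1 and blood and immune genes 2.

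At equal depth, the share of nuclei with transcripts of more than 1 lineage differed from that of deep nuclei by less than the counting error. After thinning to 1000 UMIs, 6 of 76 shallow nuclei had UMIs of at least 2 of 3 lineage sets of transcription factors and receptors (7.89%, 2.95% to 16.4%), against 9.38% of deep nuclei (7.31% to 11.8%). Averaged exactly over all possible draws, the shares were 8.21% and 7.84%. Deep gates gave 1.34% (trophectoderm), 8.82% (hypoblast) and 21.0% (epiblast) on the same average, and 56.9% of thinned epiblast-gate nuclei had the hypoblast set. UMIs of all 3 sets were found in 0 of 76 nuclei, which allows a share with such UMIs at this depth of up to 3.95% (3 counts of 76, not an exact interval), and in 2 of 86 before thinning. As a measure of UMIs where a factor is not expected, the trophectoderm set was detected in 9.12% of thinned hypoblast-gate nuclei, although that gate itself limits GATA2 and GATA3, in 26.1% of all thinned deep nuclei (22.9% to 29.6%), and in 30.3% of thinned shallow nuclei (20.2% to 41.9%). Without thinning, 24.4% of shallow nuclei had at least 2 sets, a value that depends on depth. The count of 76 nuclei cannot resolve a difference of a few percentage points.

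A broader balance of lineage transcripts gave a different picture for a minority. It used 176 genes at least 5-fold higher in the trophectoderm gate than in the hypoblast gate and 152 genes the other way round, without gate, ribosomal and mitochondrial genes, and each nucleus was placed by the trophectoderm percentage of its panel UMIs. These panels were written after values were seen. After thinning, 46 of the 75 shallow nuclei with at least 10 panel UMIs lay at or below 30%, 20 at or above 70% and 9 between (12%, 5.64% to 21.6%). Deep nuclei between the limits made up 3.17% (2.00% to 4.77%), and ribosomal-rich shallow barcodes 46.7% (28.3% to 65.7%). Because the panels were chosen on gates of the same deep nuclei, the low share of deep nuclei between is in part built in. The shares at the 2 ends were 61.3% and 26.7% in shallow nuclei and 64.8% and 32.0% in deep nuclei. The class between is a range and not a type: 13 of the 75 nuclei lay within 5 points of a limit, 7 of them at 30% to 35%, and with limits at 20% and 80% the share was 24%.

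**Figure D5:**
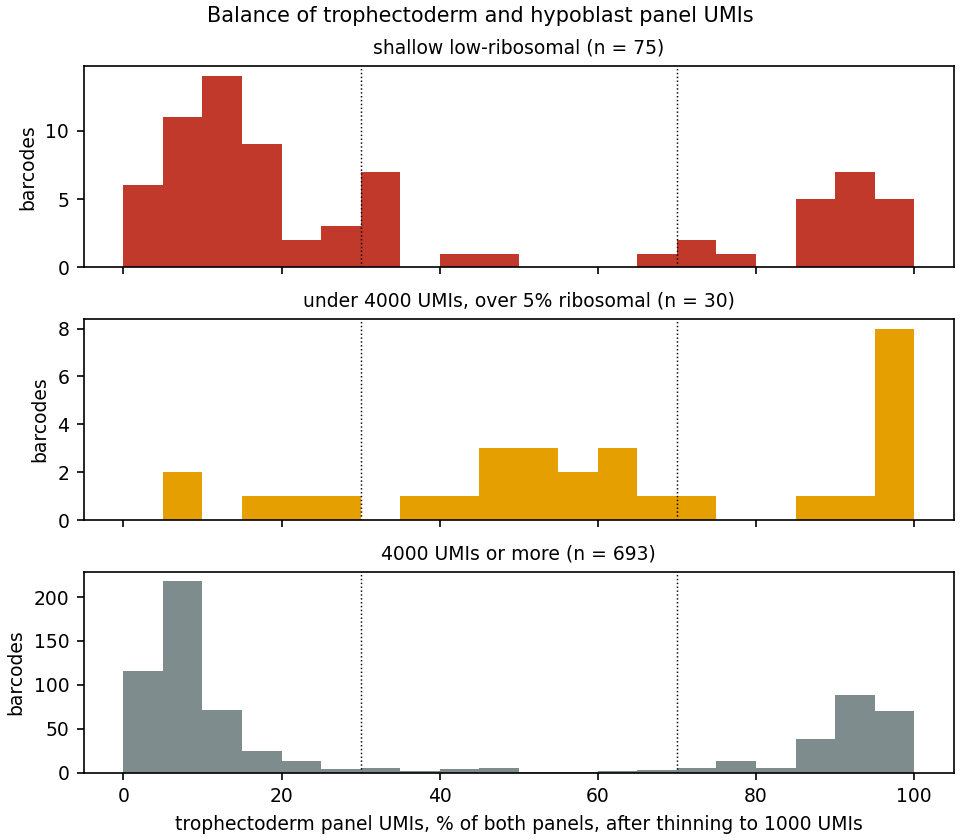
Histograms of the trophectoderm percentage of panel UMIs per barcode after thinning to 1000 UMIs, in bins of 5 points, for the shallow low-ribosomal nuclei (n = 75), the ribosomal-rich shallow barcodes (n = 30) and the deep nuclei (n = 693); dotted lines mark 30% and 70%. Shallow low-ribosomal nuclei gather at the same 2 ends as deep nuclei, with 12% between, whereas 46.7% of the ribosomal-rich barcodes lie between.

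The nuclei between the ends were shallower than the rest of the group and had more histone UMIs per total, in part from a few nuclei. On unthinned counts there were 13 of them, with a median of 1128 UMIs, against 3117.5 in the 50 nuclei at the hypoblast end and 2074 in the 23 at the trophectoderm end. Of the 33 nuclei under 2000 UMIs, 9 lay between, and of the 34 from 3000 to 4000 UMIs, 2. Replication-dependent histones stood at 2298 CPM (1711 to 3022) in the nuclei between, 817 (674 to 982) at the hypoblast end and 320 (183 to 519) at the trophectoderm end. Replacement histones followed with 3695, 968 and 799 CPM, and stress genes stood at 6624, 2216 and 3096 CPM, with the ends in the opposite order. The nucleus of 3713 UMIs described above is the deepest of those between. Without it the nuclei between had 2489 CPM (1822 to 3320) of replication-dependent histones, 2273 (1638 to 3072) of replacement histones and 4600 (3674 to 5688) of stress genes. The class also holds 3 of the 8 histone-rich nuclei, and without these 3 its replication-dependent histones stood at 1359 CPM (871 to 2023), on 24 of its 51 UMIs. Depth, ribosomal share (medians of 2.92%, 1.52% and 1.94%) and histone level moved together here, and their parts were not tested.

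At the ends most UMIs of the lineage factors were on their own side, with exceptions. HNF4A had 64 of its 66 UMIs in 22 nuclei of the hypoblast end, PDGFRA 26 of 28, and PRDM14 all 8, since the panels do not separate epiblast from hypoblast. GATA2 had 22 of 26 UMIs and GATA3 17 of 24 in nuclei of the trophectoderm end, and GATA3 had 5 UMIs in 5 nuclei of the hypoblast end. The trophectoderm set of factors was detected in 17 of 23 nuclei at the trophectoderm end and in 12 of 50 at the hypoblast end, and the hypoblast set in 1 of 23 and 32 of 50. GATA2, GATA3, HNF4A, PDGFRA and PRDM14 are gate genes, which the panels leave out, so they did not enter the percentage that placed the nuclei. The keratins KRT18 and KRT8 are panel genes, so their difference between the ends is in part built in.

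Across 2145 genes outside the marker lists, and with sums thinned to 75831 UMIs, the summed shallow nuclei had a Spearman's rho of 0.644 with the deep sum. The value was 0.613 with the hypoblast gate, 0.605 with the epiblast gate and 0.474 with the trophectoderm gate, and 0.268 with the ribosomal-rich shallow barcodes and 0.295 with barcodes under 500 genes. The sums share a library, and the deep sum is itself composed mainly of the gated nuclei. By this description the summed 86 nuclei lay nearer to deep nuclei than to the other shallow barcodes, which held for the 34 nuclei of 3000 to 4000 UMIs and not for the 33 under 2000 (0.327 with deep nuclei and 0.432 with ribosomal-rich barcodes).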

How the data were processed

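For each library the authors deposited a matrix that holds the UMI count of every feature in every barcode, and Cell Ranger 7.2.0 is the software named in it, per the file headers. The submitters' processing notes list Cell Ranger 7.1.0 and Seurat 4.3.0. The genome build and the counting of introns are not given in the sources used here. The library totals were 7029253 UMIs (blastocyst) and 7575395 UMIs (blastoid), and 16116 of 35643 features had no symbol.

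Barcodes were classed by the limits given above, counts of features with 1 symbol were added together, and counts were summed over the nuclei of a class (Python 3.11.15, numpy 2.4.6, scipy 1.17.1). Intervals at 95% are exact: Poisson for a level, Clopper-Pearson for a share, and conditional binomial for a ratio of 2 sums. They cover counting error only, since nuclei of 1 library are not replicates, and no p-value was computed. Counts under 3 were set to 3 in the comparison of genes. Shares of nuclei were compared after drawing 1000 UMIs per nucleus without replacement. No doublets were removed. In an alternative (Scrublet in scanpy 1.11.5) the 6 highest-scoring of 833 barcodes were removed, and 0 were shallow low-ribosomal nuclei. The scripts were tested on simulated data.

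The text names genes that belong to a list, and outside the lists the 15 highest and 15 lowest ratios among genes with a symbol, neither ribosomal nor mitochondrial, with a mean of at least 100 CPM. The group and the lists were chosen with earlier results of these data known. The lineage panels, the structural RNA list, the 3 features without a symbol and the sets of 4 and 8 nuclei were chosen after their values were seen. So were VIM, RARRES2, JUND, HES1 and SOX4, which are named in addition to the genes above. Listed symbols such as HSPA1A, LDHA, MALAT1 and DUXA were not analysed here. 1 gene of the 15 highest is not reported here.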

Additional observations from a re-analysis of the deposited data

How the results depend on the processing

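No paired analysis was possible because each group has 1 library, and for the same reason no replicate could be left out. Of 225 recomputed values of the 17 main results, 151 stayed within a set range of the reported value and 74 moved further. The range was a fixed fold for counts of nuclei or genes (57.3 to 129 for the 86 nuclei). For the other results it was a counting interval, taken for list medians from the list sum. Of values past 2-fold, 0 changed direction. List medians under 2-fold did so where given below, and within the range also for epiblast (to -0.17) and S phase (to 0.069). Among 103 named genes, 56 were at least 2-fold different, and 40 of these stayed so in every alternative. The 103 include the 15 highest and 15 lowest ratios, picked for their fold, so the 56 is no share of an unselected set. Over all 2539 genes compared, 4.53% were at least 2-fold higher and 3.54% lower. The upper limit on UMIs moved most. Values are log2 ratios unless given as counts or percentages: of the summed share of UMIs for replication-dependent histones, and medians over members above the CPM minimum for the other lists. Under 3000 UMIs, 52 nuclei remained, with 411 genes higher and 478 lower, and with replication-dependent histones at 3.32, replacement histones 1.70, chaperones 1.15, stress 1.93, oxidative phosphorylation 1.08, S phase 0.92, G2 and M phase 0.16, DNA methylation -0.023, trophectoderm 0.93 and hypoblast -0.42. Under 2000 UMIs, 33 nuclei remained, with 483 genes higher and 564 lower, and the same lists stood at 3.64, 1.95, 1.18, 2.18, 1.48, 0.74, 0.44, 0.46, 0.90 and -0.71, with glycolysis at 0.65 and epiblast at 0.43. TOP2A (0.10) then lay above the deep level, and CENPA stood at 0.27 because its 2 UMIs were set to 3. With at least 300 genes histones stood at 2.74. With at least 1000 genes histones stood at 1.89, stress at 0.94 and FOS at -0.69. With at most 3% ribosomal UMIs stress stood at 0.93 and FOS at -0.34. With at most 10%, 247 genes were higher, and trophectoderm stood at 0.45, hypoblast -0.32, replacement histones 1.77, S phase 0.25, G2 and M phase -0.41, stress 1.5, glycolysis 0.55 and oxidative phosphorylation 1.37. Under 5% mitochondrial UMIs trophectoderm stood at -0.061 and oxidative phosphorylation at 0.80. With nuclei weighing equally, 223 genes were higher and 166 lower, and histones stood at 2.76, hypoblast -0.32, DNA methylation -0.11, S phase 0.15, G2 and M phase 0.10, stress 1.32, glycolysis 0.15 and oxidative phosphorylation 0.98. Ratios divided by their median (a shift of -0.08) gave 59 lower genes, and a denominator without ribosomal, mitochondrial and histone UMIs put S phase at 0.16. A mean of at least 50 CPM gave 331 higher and 190 lower genes, with G2 and M phase at -0.23, chaperones 0.70, oxidative phosphorylation 0.79 and S phase 0.23. A mean of at least 200 CPM gave 44 and 46, with trophectoderm at 0.46, and a fold of 3 gave 17 and 7. The share of nuclei with at least 2 lineage sets was 24.4% without thinning and 0% when 2 UMIs per set were required. Chosen after seeing the data, leaving out the 4 nuclei put histones at 2.12, replacement histones at 1.05, stress at 0.82 and trophectoderm at 0.33, leaving out the 8 histone-rich nuclei put histones at 1.28, and limits of 20% and 80% put 24% of nuclei between the ends. The causes of these shifts were not tested. Depth limits single genes: 1 UMI in the summed shallow nuclei is worth 4.72 CPM.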
